A study of Mus musculus with 15 samples.

Results

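Reads of 10 genes of the NF-kB system were compared across every library of the series: Tnf, Il6, Nfkb1, Nfkb2, Relb, Nfkbia, Tnfaip3, Birc3, Icam1 and Ptgs2. The series concerns loss of plakoglobin, a protein of epithelial junctions, from mouse intestine and its part in colitis. The genes were picked by name as targets and regulators of the pathway, with earlier results of these data known, and all 10 were found among the 45905 genes of each of the 2 deposited tables of reads per gene. The 2 tables hold poly(A) RNA of 15 mouse libraries, 9 from organoids (small epithelial structures grown in culture out of gut) and 6 from gut. The organoids form 3 groups of 3. The DMSO group and the nativ group carry the code T75 in their descriptions and the genotype JUPfl/fl in their titles, a Jup gene flanked by sites for Cre recombinase. The Tamoxifen group carries the code T41 and the genotype iVilCre ERT2JUPfl/fl, the same floxed gene with a Cre that tamoxifen activates and that the villin promoter drives in intestinal epithelium. Organoid code, Cre and treatment therefore change together between the Tamoxifen group and both other groups and cannot be told apart, and the labels do not say whether replicates are separate cultures, so that p-values measure the spread between these samples only. The gut libraries form 2 groups of 3 with a code for each library, described as ctr and PG_KO (PG is plakoglobin, the junction protein that Jup encodes). Their titles conflict with the descriptions. The libraries described as ctr are titled iVilCre ERT2JUPfl/fl, and those described as PG_KO are titled DSS colitis JUPfl/fl, where DSS is dextran sodium sulfate, a compound given to mice to cause colitis. Whether the ctr animals received DSS is not given, and neither are ages. Groups are called by their descriptions throughout.

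NF-kB is a family of dimeric transcription factors that inhibitor proteins of the IkB family hold in the cytoplasm of resting cells. Signals from receptors of tumour necrosis factor, interleukin 1 and microbial products activate the IkB kinase complex, the inhibitor is degraded, and the released dimers enter the nucleus and switch on cytokines, adhesion molecules, survival genes and their own inhibitors. A slower, noncanonical branch processes the p100 protein to p52, which pairs with RelB. In the gut both epithelial cells and the immune and stromal cells of the wall use the pathway, and Tnf and Il6 are made largely by immune and stromal cells.

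Promoters show which of the genes carry the DNA letters that NF-kB dimers recognise close to their start. In the RefSeq promoter table (build GRCm38.p6) 8 of the 10 genes were found, with 11 annotated starts. Nfkb1 and Relb were not among them. The 250 bases before each start were searched on both strands for the kB consensus, for its 9-letter form GGNNTTTCC, which overlaps it in part, and for the TATA box letters TATAAA. The 4 windows below are those of the genes with a kB match whose window lies outside the gene, and they are shown because they place the matches of 3 genes that differed between organoid groups (Icam1, Nfkbia and Tnfaip3) beside that of Il6, which was almost absent from organoids. Capitals mark letters of a match to the kB consensus or to GGNNTTTCC on either strand. The windows lie at chr9:21015690-21015939 (plus strand), chr12:55492648-55492897 (minus strand), chr10:19015411-19015660 (minus strand, the first of 2 annotated starts) and chr5:30012864-30013113 (plus strand), each written 5′ to 3′ on the gene's own strand.
Icam1: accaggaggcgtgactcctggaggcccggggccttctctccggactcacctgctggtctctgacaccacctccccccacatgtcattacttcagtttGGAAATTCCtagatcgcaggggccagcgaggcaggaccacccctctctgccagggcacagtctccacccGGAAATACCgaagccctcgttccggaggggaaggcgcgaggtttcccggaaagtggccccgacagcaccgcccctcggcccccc
Nfkbia: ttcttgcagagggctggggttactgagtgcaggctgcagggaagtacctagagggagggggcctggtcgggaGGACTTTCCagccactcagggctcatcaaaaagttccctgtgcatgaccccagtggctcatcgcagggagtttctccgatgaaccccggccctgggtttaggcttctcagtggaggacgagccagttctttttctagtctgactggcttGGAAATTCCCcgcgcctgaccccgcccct
Tnfaip3: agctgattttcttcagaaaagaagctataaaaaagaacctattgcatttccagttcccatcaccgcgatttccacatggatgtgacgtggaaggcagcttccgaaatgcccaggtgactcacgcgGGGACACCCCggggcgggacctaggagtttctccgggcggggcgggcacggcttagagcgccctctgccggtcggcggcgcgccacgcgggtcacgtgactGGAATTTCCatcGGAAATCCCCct
Il6: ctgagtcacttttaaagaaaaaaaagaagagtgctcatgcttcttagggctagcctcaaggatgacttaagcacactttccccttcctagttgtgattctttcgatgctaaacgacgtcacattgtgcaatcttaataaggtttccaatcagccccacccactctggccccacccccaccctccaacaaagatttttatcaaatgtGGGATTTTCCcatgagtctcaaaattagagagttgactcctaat
The kB consensus was present before a start of 4 of the 8 genes (Il6, Nfkb2, Nfkbia and Tnfaip3). Counted by start it was in 6 of the 11, among them every Nfkb2 start, and in 3.9% of the 32851 promoters of the table. GGNNTTTCC was present in those 4 genes and in Icam1, at 6 of the 11 starts, and in 4.93% of all promoters. TATAAA was present in Tnf and Tnfaip3, at 2 of the 11 starts, and in 12.4% of all promoters. The windows of Birc3 and Ptgs2 and the window of the second Tnfaip3 start held none of the 3, and that of Tnf held no kB letters, which says only that these letters are not in these windows. A match describes letters and not a bound site.

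**Figure D1:**
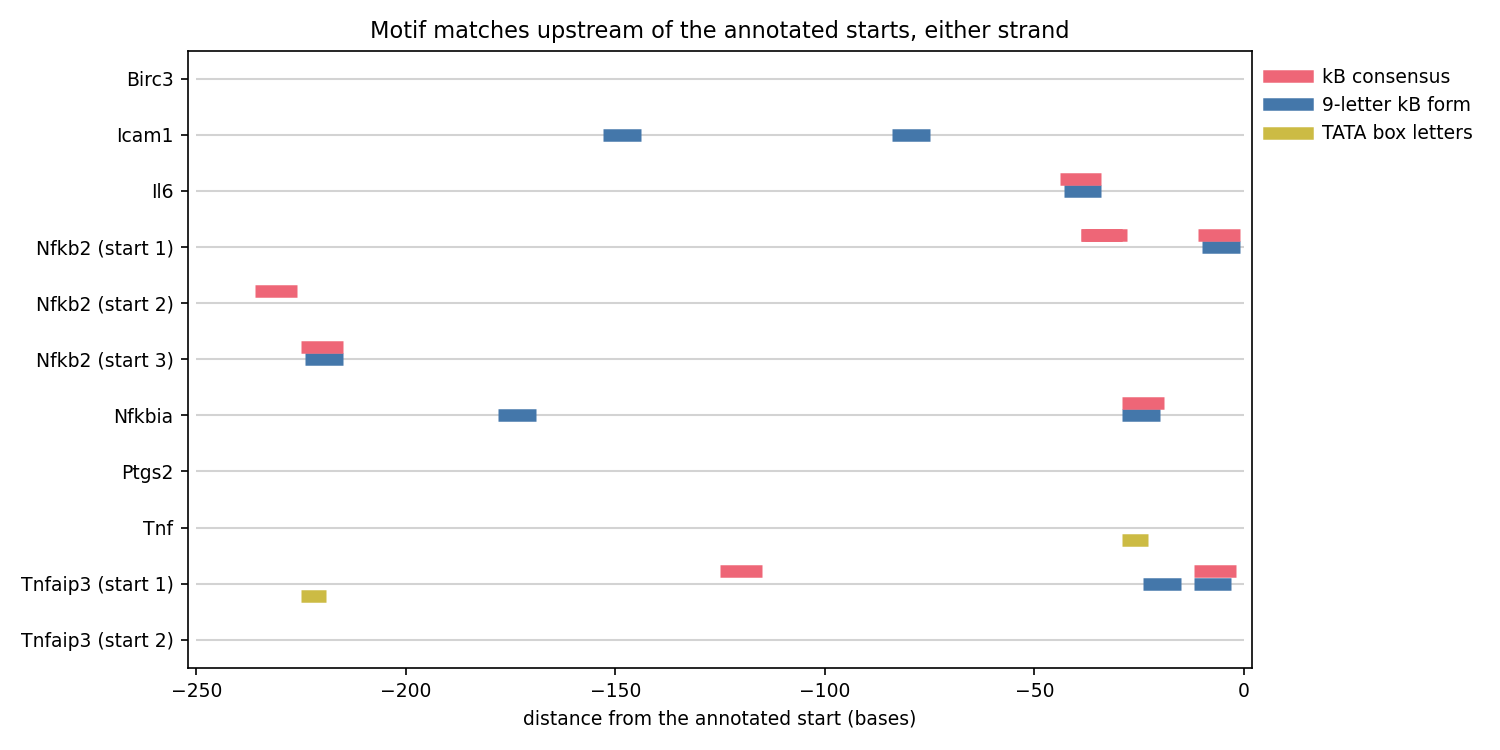
Position of motif matches in the 250 bases before the 11 annotated starts of 8 genes (x axis, distance from the start in bases). Bars are matches on either strand to the kB consensus, to its 9-letter form and to the TATA box letters. Il6, Nfkb2, Nfkbia, Tnfaip3 and Icam1 hold kB letters, and Birc3 and Ptgs2 hold none.

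Library totals ran from 25185053 to 30744563 reads in organoids and from 23194385 to 29257641 in gut, so that 3 reads in a library correspond to 0.0976 to 0.129 CPM (reads per 1000000 of the library total). Jup, the targeted gene, stood at 360 to 414 CPM in DMSO organoids, 275 to 395 in nativ organoids and 69.0 to 71.2 in Tamoxifen organoids. In gut it stood at 302 to 495 CPM in the libraries described as ctr and 75.2 to 82.8 in those described as PG_KO, so its level follows the descriptions and not the titles. Epithelial markers were present in every library. The list of 6 summed to 10035 to 10164 CPM in Tamoxifen organoids, 6420 to 7812 in DMSO organoids and 8191 to 8342 in nativ organoids, with 5 genes higher and 1 lower in every Tamoxifen than in every DMSO library. Against nativ organoids 4 were higher and 1 lower in this way. Of all tested genes 76.1% were separated, in either direction, from DMSO and 74.6% from nativ organoids. Vil1, an actin bundler of the brush border, stood at 1246 to 1269 CPM in Tamoxifen organoids against 187 to 260 in DMSO organoids and 166 to 244 in nativ organoids, and Krt18, a simple epithelial keratin and the 1 lower gene, at 877 to 886 CPM against 2106 to 3011 and 2957 to 3454. In bulk samples fewer cells of a type and less RNA per cell cannot be told apart.

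Between Tamoxifen and DMSO organoids, 8 of the 9 NF-kB genes that passed the filter on low counts differed at an adjusted p under 0.05 (quasi-likelihood F test of edgeR, Benjamini-Hochberg adjustment over all 16449 tested genes). Icam1, Ptgs2, Tnf, Tnfaip3, Nfkb2 and Nfkbia were lower in Tamoxifen organoids and Relb and Birc3 were higher, while Nfkb1 did not pass. The fitted folds ran from 14.5 for Icam1 to 1.32 for Relb. Over all tested genes 33.9% were called higher and 32.4% lower, so that a call by itself sets none of these genes apart. The median log2 change of the 9 genes was -0.57, beside 0.02 over all tested genes. Against nativ organoids the same comparison gave 6 lower and 2 higher of 9, where 33.5% of all tested genes were called higher and 33.5% lower, with a median of -0.77 beside 0.01. The comparisons with DMSO and with nativ organoids share the 3 Tamoxifen libraries and are not independent. Adjusted p-values from edgeR for Tamoxifen against DMSO come first below, and those against nativ second.

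**Figure D2:**
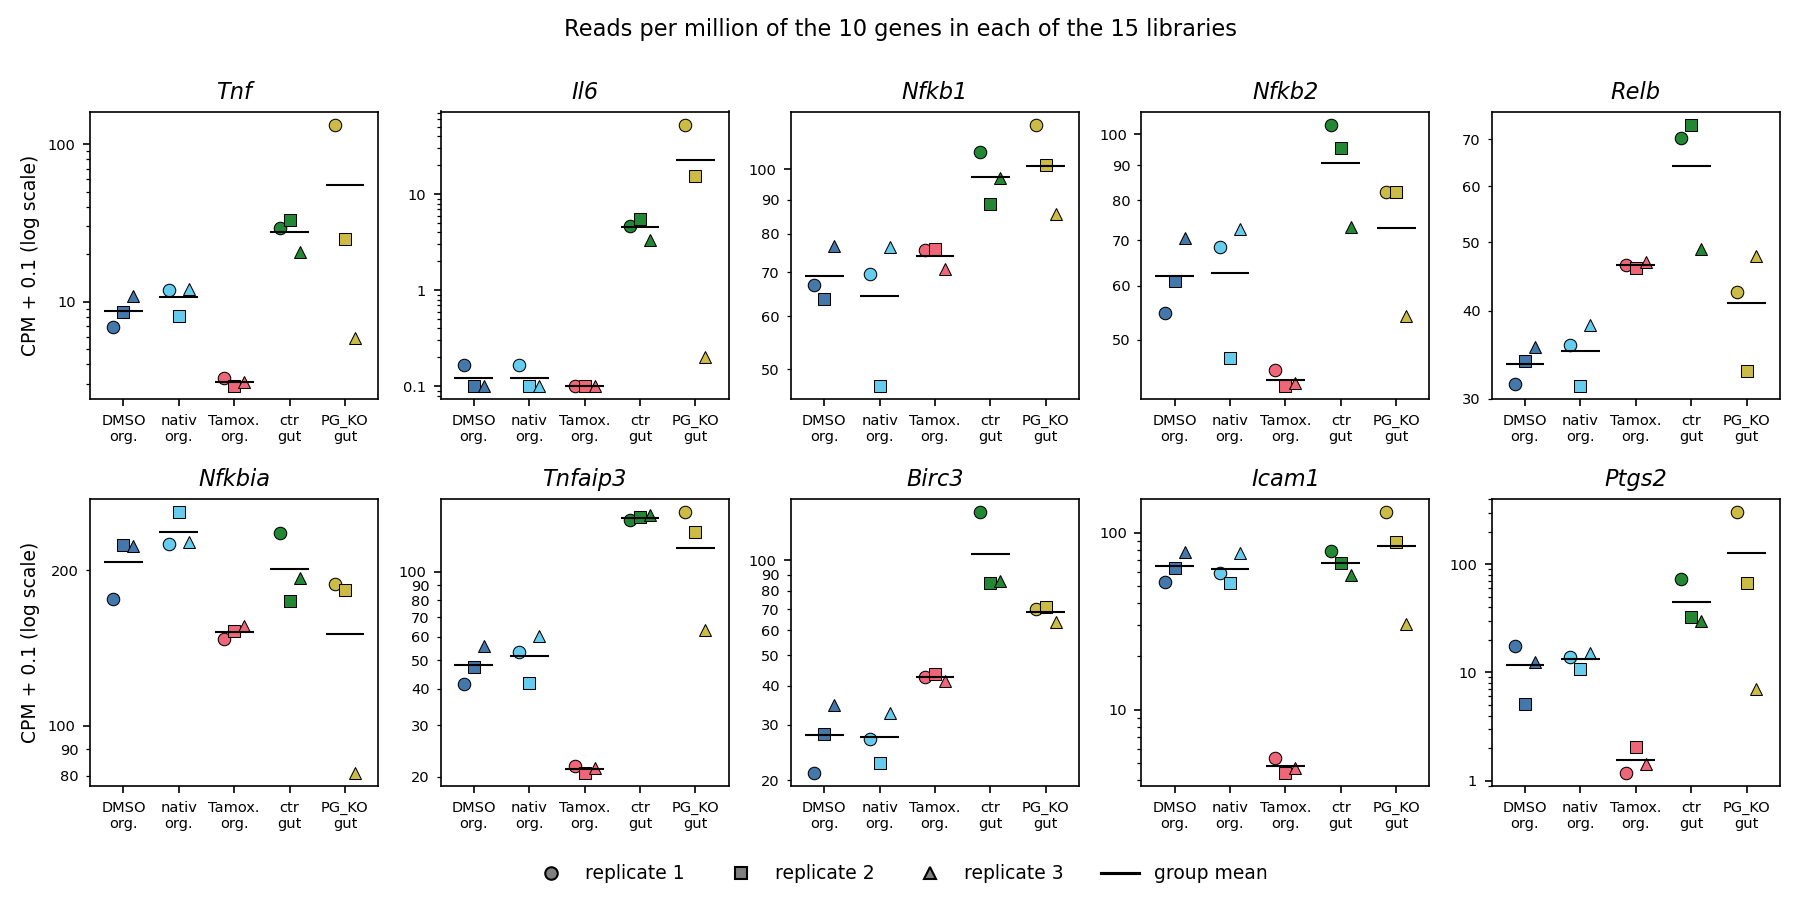
CPM + 0.1 (y axis, log scale, a separate range for each gene) of the 10 genes in the 15 libraries, by group on the x axis. Symbols are replicates and bars are group means. The 3 Tamoxifen libraries of Icam1 (4.26 to 5.22 CPM) lie below every other library, and the 3 PG_KO gut libraries of Tnf spread from 5.74 to 133 CPM.

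Of the 2 cytokines, Tnf (tumour necrosis factor, chr17:35199367-35202007) encodes a ligand that activates the pathway and is itself a target. Its levels were 6.77, 8.50 and 10.7 CPM in the 3 DMSO libraries, 11.8, 8.0 and 11.9 in the nativ libraries and 3.18, 2.80 and 3.01 in the Tamoxifen libraries. Every Tamoxifen library lay below every other organoid library. The log2 change was -1.6 (SE 0.19, adjusted p = 2.76e-05) against DMSO and -1.93 (SE 0.19, adjusted p = 6.36e-06) against nativ. Il6 (interleukin 6, chr5:30013114-30019975), a cytokine of the acute phase response, had 2 reads in DMSO replicate 1, 2 in nativ replicate 1 and 0 in the other 7 organoid libraries. It failed the filter, and no fold is given, since each group is at or under the level of 3 reads.

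The 3 genes of NF-kB subunits did not behave alike. Nfkb1 (chr3:135584655-135691969) encodes p105, the precursor of the canonical subunit p50. It stood at 66.9, 63.6 and 76.4 CPM in DMSO libraries, 69.5, 47.0 and 76.2 in nativ libraries and 75.5, 75.7 and 70.6 in Tamoxifen libraries, and the groups overlapped. Its log2 change was 0.03 against DMSO (SE 0.12, 95% interval -0.21 to 0.27, adjusted p = 0.817) and 0.10 against nativ (SE 0.12, 95% interval -0.14 to 0.34, adjusted p = 0.494). Differences within these bounds are not excluded.

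Nfkb2 (chr19:46300994-46312400) encodes p100, the precursor of p52 in the noncanonical branch. It stood at 54.7, 60.9 and 70.4 CPM in DMSO libraries, 68.3, 47.0 and 72.5 in nativ libraries and 45.1, 42.7 and 43.1 in Tamoxifen libraries. The Tamoxifen libraries were the 3 lowest, though nativ replicate 2 lay close above them. The gene fell by 0.57 on the log2 scale against DMSO (SE 0.13, adjusted p = 0.00212) and by 0.63 against nativ (SE 0.13, adjusted p = 0.00118). Nfkb2 overlaps the noncoding gene 4833438C02Rik and the gene Psd on the opposite strand. In organoids these were at 6.55 to 11.4 and 1.32 to 2.08 CPM, and because the strand setting of the counting is not given, reads of overlapping genes cannot be told apart.

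Relb (chr7:19606217-19629438) encodes the partner of p52 and went the other way. Its levels were 31.4, 33.8 and 35.4 CPM in DMSO libraries, 35.6, 31.1 and 38.0 in nativ libraries and 46.4, 45.8 and 46.8 in Tamoxifen libraries. All 3 Tamoxifen libraries lay above the other 6. Relb rose by 0.40 on the log2 scale against DMSO (SE 0.09, adjusted p = 0.00198) and by 0.29 against nativ (SE 0.09, adjusted p = 0.0114). The call against nativ was lost without Tamoxifen replicate 3 (log2 0.27, edgeR adjusted p = 0.0529).

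Among the inhibitors and feedback genes, Nfkbia (chr12:55489409-55492647) encodes IkB alpha, the inhibitor that NF-kB itself induces. It stood at 176, 224 and 223 CPM in DMSO libraries, 225, 260 and 227 in nativ libraries and 147, 153 and 156 in Tamoxifen libraries. Tamoxifen libraries were again the 3 lowest, and the log2 change was -0.52 (SE 0.14, adjusted p = 0.00766) against DMSO and -0.77 (SE 0.14, adjusted p = 6.62e-04) against nativ. Tnfaip3 (chr10:19000910-19015410) encodes A20, a ubiquitin editing enzyme that shuts the pathway off. Its levels were 41.3, 47.1 and 55.7 CPM in DMSO libraries, 53.2, 41.7 and 60.1 in nativ libraries and 21.7, 20.5 and 21.4 in Tamoxifen libraries. The Tamoxifen range lay well below the other groups, with log2 changes of -1.25 (SE 0.13, adjusted p = 7.41e-06) and -1.40 (SE 0.13, adjusted p = 3.18e-06). Both genes hold kB letters in the windows printed above. Of the other lower genes Icam1 and Nfkb2 hold such letters in their windows, and Tnf and Ptgs2 hold none. The part of these letters in the changes was not tested.

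Birc3 (chr9:7847468-7873205) encodes cIAP2, a ubiquitin ligase at the tumour necrosis factor receptor that protects cells from death and restrains the noncanonical branch. It stood at 20.9, 27.9 and 34.6 CPM in DMSO libraries, 26.9, 22.6 and 32.6 in nativ libraries and 42.6, 43.5 and 41.2 in Tamoxifen libraries. It was the second gene whose Tamoxifen libraries lay above all other organoid libraries. Birc3 rose by 0.54 on the log2 scale against DMSO (SE 0.16, adjusted p = 0.0137) and by 0.52 against nativ (SE 0.16, adjusted p = 0.0163). The call against nativ was lost without nativ replicate 1 (edgeR adjusted p = 0.0564) or Tamoxifen replicate 2 (edgeR adjusted p = 0.0516). The deposited counts of Birc3 include fractions of reads in 14 of 15 libraries, and those of Tnf in 1 and Relb in 2. Reads shared with other genes or places cannot be told apart here.

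The largest differences were in 2 effector genes. Icam1 (chr9:21015940-21028814) encodes an adhesion molecule that leukocytes bind. It stood at 52.6, 63.2 and 78.3 CPM in DMSO libraries, 59.5, 52.2 and 76.6 in nativ libraries and 5.22, 4.26 and 4.58 in Tamoxifen libraries. The Tamoxifen libraries were about an order of magnitude below the rest and close to each other. The log2 change was -3.85 against each of the other groups (SE 0.18, adjusted p = 1.58e-08 and 1.63e-08), a fitted fold of 14.5. Ptgs2 (chr1:150100031-150108234) encodes cyclooxygenase 2, the inducible enzyme of prostaglandin synthesis. It stood at 17.6, 4.96 and 12.4 CPM in DMSO libraries, 13.8, 10.7 and 14.9 in nativ libraries and 1.07, 1.95 and 1.32 in Tamoxifen libraries. DMSO replicate 2 was low in its group but above every Tamoxifen library, and the log2 change was -3.06 (SE 0.40, adjusted p = 5.79e-05) against DMSO and -3.28 (SE 0.40, adjusted p = 3.48e-05) against nativ.

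**Figure D3:**
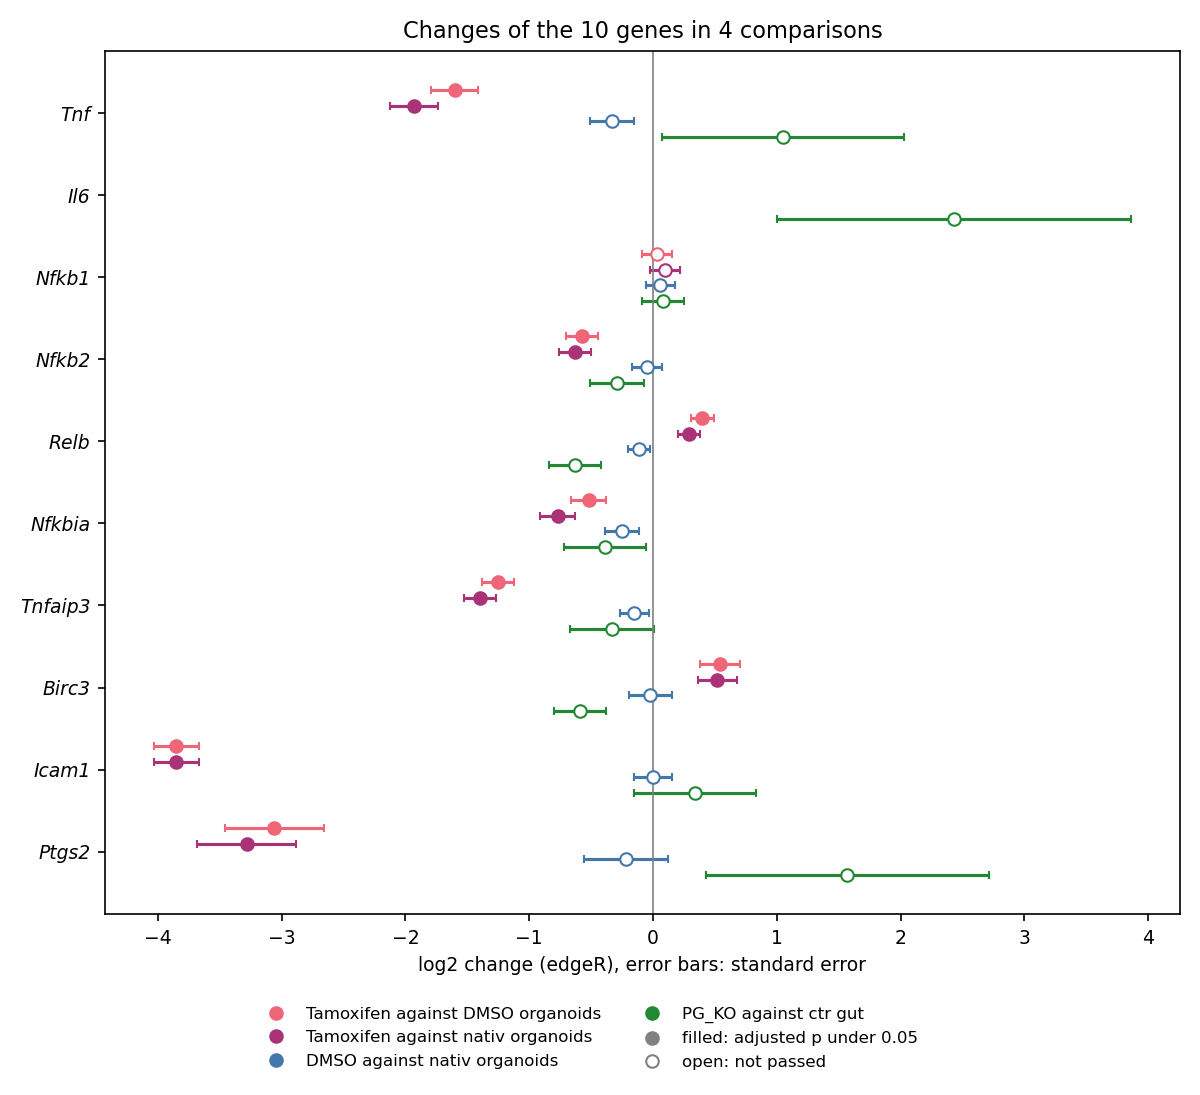
Log2 changes (x axis, edgeR) of the 10 genes (y axis) in 4 comparisons, with the standard error as bars. Filled points passed an adjusted p of 0.05. Icam1 shows -3.85 in both Tamoxifen comparisons, Relb and Birc3 are filled on the right side of 0, and every point of the gut comparison and of DMSO against nativ is open.

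In 8 of the 9 genes the Tamoxifen libraries did not overlap the DMSO libraries, and 76.1% of all tested genes were separated in this way. Against nativ libraries it was also 8 of 9, beside 74.6%. Markers of other cell types differed between these groups too. The leukocyte list summed to 0.390 to 0.401 CPM in Tamoxifen organoids, 1.97 to 2.61 in DMSO organoids and 1.54 to 1.74 in nativ organoids, with 3 of its 5 genes lower and 1 higher (Coro1a, 0.0109 CPM in DMSO and 0.204 in Tamoxifen) in every Tamoxifen than in every DMSO library. Cd53 made up most of the sum in DMSO (1.57 CPM) and nativ organoids (0.921 CPM) and stood at 0.0220 CPM in Tamoxifen organoids. Ptprc, the common leukocyte antigen, had 0 reads in DMSO and nativ organoids and 2 in the Tamoxifen group. The macrophage list summed to 41.3 to 41.4 CPM in Tamoxifen organoids, 237 to 396 in DMSO organoids and 302 to 362 in nativ organoids, with 3 of 6 genes lower and 1 higher. Adgre1 had 0 reads in every organoid library and C1qa 1 read at most in a group, and the sums were mostly Cd14 (239 CPM in DMSO, 8.78 in Tamoxifen) and Cd68 (82.9 and 15.1 CPM) and, in Tamoxifen organoids, Lyz2, a lysozyme, which stood at 0.0887 CPM in DMSO and 17.3 in Tamoxifen. The neutrophil list summed to 16.7 to 17.6 CPM in Tamoxifen organoids, 0.983 to 1.27 in DMSO organoids and 1.64 to 1.80 in nativ organoids. Ly6g made up most of it in Tamoxifen organoids (16.2 CPM), and S100a9 in DMSO (0.705 CPM) and nativ organoids (1.35 CPM), while Retnlg and Csf3r were at or near 0. The neuron and glia list summed to 9.56 to 10.02 CPM, 4.65 to 5.77 and 4.64 to 6.42 in the same order, with 1 of 6 genes higher. Ptprc, Adgre1, C1qa, Retnlg and Csf3r were thus at or near 0 in all 3 organoid groups. Other genes of the same lists, such as Cd53, Cd14 and Cd68, were read in DMSO and nativ organoids. The part of the other markers in the results was not tested.

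DMSO and nativ organoids, which share code and genotype, gave 0 calls among the 9 genes with edgeR, 0 at an unadjusted p under 0.05, and 0 with DESeq2 or limma-voom. Over all tested genes edgeR called 0%, an unadjusted p under 0.05 was reached by 14.6%, and DESeq2 called 0.954%. The largest difference among the 9 was that of Tnf, at a log2 change of -0.33 (SE 0.18, 95% interval -0.68 to 0.02). Icam1 was at 64.7 ± 12.9 CPM in DMSO and 62.7 ± 12.5 in nativ organoids (SD, n = 3 each), with a 95% interval of the log2 change from -0.29 to 0.29. Scaled by library totals, Nfkbia was the 1 gene of 9 whose groups did not overlap, 176 to 224 CPM in DMSO and 225 to 260 in nativ organoids. Of all tested genes 7.02% were lower in this way. With the library scaling of the fits (TMM) the Nfkbia groups overlapped, at 173 to 234 CPM in DMSO and 222 to 298 in nativ organoids. The log2 change of Nfkbia was -0.25 (SE 0.14, edgeR adjusted p = 0.407).

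The gut libraries gave another picture. With edgeR 0 of the 10 genes passed in PG_KO against ctr, and over all 18043 tested genes the share called was also 0%. Jup itself was not called in this fit (log2 -2.29, SE 0.23, edgeR adjusted p = 0.163), though its groups did not overlap. A missing call in gut therefore does not show that a gene was unchanged. An unadjusted p under 0.05 was reached by 2 of the 10 with edgeR, DESeq2 and limma-voom alike, beside 15% of all tested genes with edgeR. DESeq2 called 2.54% of all tested genes and none of the 10. The median log2 change of the 10 genes was -0.11, beside -0.03 over all tested genes. The SD of the 3 PG_KO libraries was larger than the difference of the group means for 7 of the 10 genes, the others being Nfkb2, Relb and Birc3.

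Tnf in gut stood at 29.2, 33.0 and 20.5 CPM in the ctr libraries and 133, 25.1 and 5.74 in the PG_KO libraries. PG_KO replicate 1 was thus 4.83 times the ctr mean and replicate 3 was lower than it by a factor of 4.8, so the group spans the ctr range on both sides. The log2 change was 1.05 (SE 0.98, edgeR adjusted p = 0.57). Il6 was detected in gut, with 129, 127 and 84 reads in ctr and 1504, 393 and 3 in PG_KO, which is 4.62, 5.48 and 3.21 CPM against 53.0, 15.6 and 0.103. PG_KO replicates 1 and 2 lay above every ctr library and replicate 3 below every one. The log2 change of 2.43 had an SE of 1.43 (edgeR adjusted p = 0.408).

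Ptgs2 had the same order of PG_KO libraries, with 72.5, 32.1 and 29.9 CPM in ctr and 306, 66.3 and 6.87 in PG_KO (log2 1.57, SE 1.14, edgeR adjusted p = 0.475). Icam1 did so as well, with 78.4, 67.3 and 57.8 CPM in ctr and 132, 88.9 and 30.4 in PG_KO (log2 0.34, SE 0.49, edgeR adjusted p = 0.717). The sign of these differences rests on PG_KO replicate 1. Without it the log2 change was -0.84 for Tnf, -0.28 for Ptgs2 and -0.19 for Icam1, while Il6 kept a positive value of 0.82.

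The subunit and feedback genes varied less. Nfkb1 stood at 106, 88.6 and 96.9 CPM in ctr and 117, 101 and 85.6 in PG_KO, overlapping ranges with a log2 change of 0.08 (SE 0.17), and its sign also turned without PG_KO replicate 1 (-0.06). Nfkb2 stood at 103, 95.4 and 73.1 CPM in ctr and 82.1, 82.2 and 54.0 in PG_KO (log2 -0.29, SE 0.22). Psd, on its opposite strand, reached 60.4 CPM in ctr replicate 1 and 17.0 CPM at most in PG_KO. Nfkbia (236, 174 and 193 CPM in ctr, 188, 183 and 80.7 in PG_KO) and Tnfaip3 (149, 153 and 156 CPM in ctr, 160, 137 and 63.2 in PG_KO) were alike in having 2 PG_KO libraries near the ctr level and replicate 3 far below it. Their log2 changes were -0.39 (SE 0.33) and -0.33 (SE 0.34).

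Relb and Birc3, the 2 genes that rose in Tamoxifen organoids, were the 2 at an unadjusted p under 0.05 in gut, and there their values were lower in PG_KO. Relb stood at 70.2, 73.3 and 48.8 CPM in ctr and 42.4, 32.7 and 47.7 in PG_KO, so that ctr replicate 3 lay just above the highest PG_KO library. Birc3 stood at 143, 84.6 and 85.7 CPM in ctr and 70.1, 70.8 and 63.6 in PG_KO. Their log2 changes were -0.63 (SE 0.21) and -0.59 (SE 0.21), each with an edgeR adjusted p = 0.33. Neither gene passed the adjusted threshold, and non-overlap with lower values, seen in these 2 of 10 genes, was seen in 8.67% of all tested genes. Lymphocyte markers separated the groups in the same direction. The T cell list summed to 8.14 to 17.7 CPM in PG_KO and 20.7 to 49.8 in ctr, with 3 of 6 genes lower in every PG_KO than in every ctr library, and the B and plasma cell list to 78.1 to 171 and 203 to 582 CPM, with 1 of 6. Neuron and glia markers summed to 67.5 to 92.5 and 106 to 249 CPM, with 0 of 6. Epithelial markers went the other way, with sums of 11248 to 14156 CPM in PG_KO and 7069.5 to 11430 in ctr, ranges that overlapped. The part of these cell types in the values of Relb and Birc3 was not tested.

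**Figure D4:**
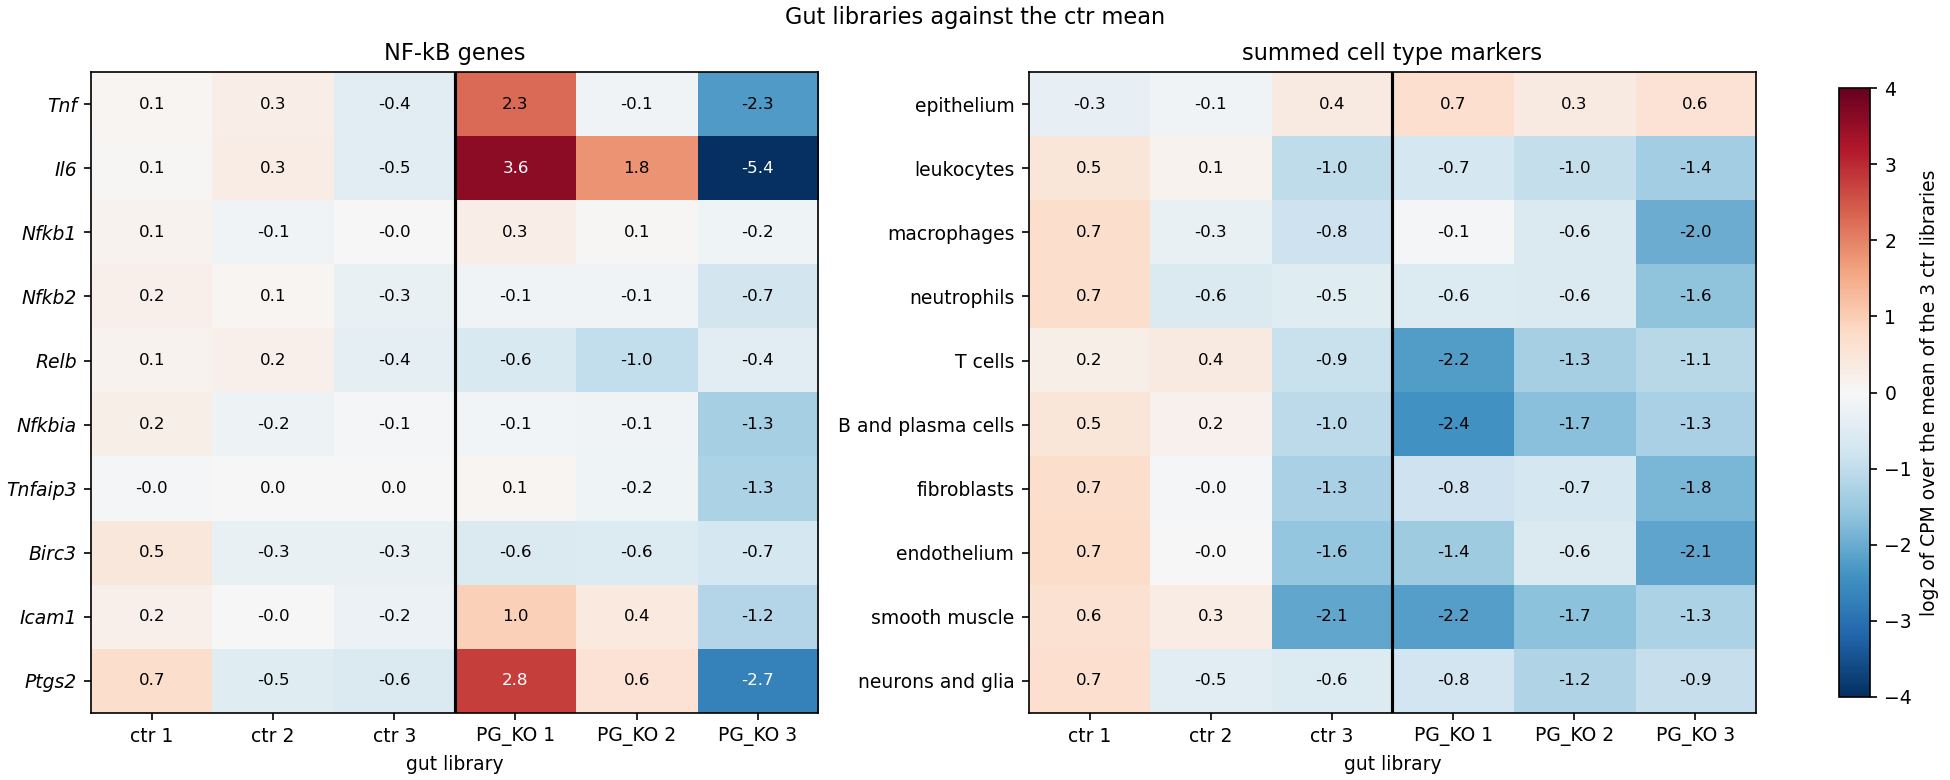
Log2 of CPM over the mean of the 3 ctr libraries (colour and printed values) in the 6 gut libraries (x axis), for the 10 genes on the left and for summed markers of 10 cell type lists on the right. PG_KO replicate 3 is the lowest library for 9 of the 10 genes and for the leukocyte, macrophage, neutrophil, fibroblast and endothelial sums, but the highest of the PG_KO libraries for the T cell, B and plasma cell and smooth muscle sums. How many of all tested genes are lowest in that library was not counted.

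Single libraries stood apart across the 10 genes. PG_KO replicate 3 was the lowest of the 6 gut libraries for 9 of the 10 genes, the exception being Relb, which was lowest in PG_KO replicate 2. PG_KO replicate 1 was the highest for 6 genes, ctr replicate 1 for 3 and ctr replicate 2 for 1. These counts were not made over all tested genes, so they do not set the 10 genes apart. The sums of 5 marker lists had the same lowest library. PG_KO replicate 3 had the lowest sums of leukocyte (212 CPM), macrophage (241), neutrophil (441), fibroblast (629) and endothelial (34.0) markers, where the ctr libraries ran from 275 to 778, 541 to 1545, 898 to 2189, 919 to 3627 and 49.9 to 246. Ctr replicate 1 had the highest sum of each of these 5 lists. Other lists went another way. Among the PG_KO libraries replicate 3 had the highest sums of T cell (17.7 CPM), B and plasma cell (171) and smooth muscle (1151) markers, the last also above ctr replicate 3 (657). PG_KO replicate 1, the highest for Tnf, Il6 and Ptgs2, had 906 CPM of macrophage and 914 CPM of neutrophil markers, within the ctr ranges. The largest parts of these sums in gut were Lyz2 (mean 507 CPM in ctr, 309 in PG_KO) and Ly6g (715 and 418 CPM). Both genes, and Cd14, were also read in organoids with Ptprc at or near 0, so the sums do not measure myeloid cells alone. The part of these cell types in the gut values was not tested. With both ctr replicate 1 and PG_KO replicate 3 left out, edgeR called 0 of the 10 genes and 0% of all 17826 tested. In that fit 3 of the 10, Il6 (log2 3.01), Ptgs2 (2.62) and Icam1 (0.83), were at an unadjusted p under 0.05, beside 7% of all tested genes. Each had higher values in PG_KO, where the fit of all 6 libraries had Relb and Birc3 with lower values. All 3 genes were lowest in PG_KO replicate 3. Leaving that library out raises their change by itself, so this fit lends the direction no support.

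Whether the change differed between organoids and gut was tested in 1 edgeR fit of 12 libraries, as the change from DMSO to Tamoxifen organoids minus the change from ctr to PG_KO gut. The difference passed for 4 of the 10 genes, 2 in each direction. Of all 19141 tested genes it passed as positive (organoid change above gut change) in 20.7% and as negative in 15.7%. Icam1 had a log2 difference of -4.15 (SE 0.61, adjusted p = 3.96e-04) and Ptgs2 of -4.58 (SE 1.46, adjusted p = 0.0306). Relb had 1.08 (SE 0.25, adjusted p = 0.00568) and Birc3 1.19 (SE 0.30, adjusted p = 0.0105). Tnf (-2.61, SE 1.16, adjusted p = 0.103) and Tnfaip3 (-0.88, SE 0.40, adjusted p = 0.108) did not pass. Ptgs2 was lost in 7 of 12 fits that each left out 1 library, with adjusted p up to 0.0882. Without PG_KO replicate 3 the count was 7 of 10, with Tnf, Tnfaip3 and Nfkb2 added, where 33.5% of all tested genes were called. DESeq2 also called Tnf (adjusted p = 0.0331), and with nativ in place of DMSO organoids edgeR also called Tnfaip3 (adjusted p = 0.0408). The value of Il6 (-5.09, SE 5.92) rests on organoid libraries with 0 to 2 reads. Kind of sample, code, Cre, treatment and the title's DSS colitis all differ between the 2 contrasts and cannot be told apart.

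Levels of different genes were compared per exon length, as RPKM (CPM per kilobase). Nfkbia was the most abundant of the 10 in each of the 5 groups, from a mean of 95.5 RPKM in PG_KO gut to 150 in nativ organoids. Icam1 was second in DMSO organoids (25.1 ± 5.01 RPKM, SD, n = 3) and in nativ organoids (24.3 ± 4.85), and seventh in Tamoxifen organoids (1.82 ± 0.188), where it did not differ beyond its range from Tnf (1.81 ± 0.115). In Tamoxifen organoids Nfkb1 (16.2 ± 0.629 RPKM) and Relb (15.7 ± 0.162) came after Nfkbia with overlapping ranges, followed by Birc3 (8.87 ± 0.248). In the T75 organoids Relb, Tnfaip3 and Nfkb2 followed Nfkb1 at 8.44 to 11.9 RPKM on average, neighbours whose ranges overlapped. In ctr gut Tnfaip3 (31.8 ± 0.654 RPKM) was second and apart from its neighbours, and Icam1, Birc3, Relb, Nfkb1, Tnf, Nfkb2 and Ptgs2 followed with each range overlapping the next. In PG_KO gut every neighbour in the order overlapped, including Nfkbia with Tnf (33.0 ± 41.5 RPKM).

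Genes with the most similar pattern were sought among 15330 genes tested in both tables, by the root mean square difference of log2 CPM over the 15 libraries after centring each gene. For Tnf they were Ccrl2 (0.414) and Nod2 (0.483), beside a root mean square of 1.45 for Tnf itself. For Ptgs2 they were Plau (0.638) and Il1a (0.705), beside 2.14, and for Icam1 Gm36551 (0.386) and Adamtsl4 (0.470), beside 1.58. For Tnfaip3 they were Xdh (0.277) and Arid5a (0.281), beside 1.04, and for Birc3 Esyt1 (0.195) and Mob3a (0.212), beside 0.779. Nfkbia was nearest to Junb (0.211) and Tnip1 (0.218), beside 0.398. The nearest genes of the subunits were Unc45a and Sema4b for Nfkb1, Dnhd1 and Hipk3 for Nfkb2, and Rassf3 and Tatdn3 for Relb, at 0.120 to 0.178. The 15 libraries include both organoids and gut, so these values also cover the split between the 2 kinds of sample.

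Around these genes, 65 further genes of the pathway were listed by role, of which 57 could be tested in organoids and 64 in gut. Between Tamoxifen and DMSO organoids 35 of the 57 were lower, 11 were higher and 11 did not pass, with a median log2 change of -0.45. Over all tested genes 32.4% were lower and 33.9% higher, with a median of 0.02. Genes named below to fill a count of 5 or fewer in a role were chosen after their values were seen. The targets of the pathway besides those above were lower in 10 of 13 cases and higher in 2. Lcn2, lipocalin 2, an iron-binding defence protein, went from 932 to 0.385 CPM (log2 -11.30, SE 0.47, adjusted p = 6.60e-09). The neutrophil-attracting chemokines Cxcl5 and Cxcl1 went from 133 to 0.283 CPM (log2 -8.93, SE 0.45) and from 27.2 to 0.504 CPM (log2 -5.80, SE 0.29). Ccl20, a chemokine of gut epithelium, went from 15.9 to 1.13 CPM (log2 -3.88, SE 0.21). The 2 that rose were Nos2, inducible nitric oxide synthase (1.66 to 18.9 CPM, log2 3.43, SE 0.48), and Sod2, mitochondrial superoxide dismutase (58.7 to 94.7 CPM, log2 0.62, SE 0.08).

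Upstream genes went both ways, as all tested genes did (32.4% lower and 33.9% higher). Of 7 receptors tested, 4 were lower (Il1r1, Tnfrsf1b, Tnfrsf12a and Tnfrsf1a) and 2 higher (Tnfrsf11a and Cd40). Il1r1, the interleukin 1 receptor, went from 7.46 to 0.0771 CPM. The Tamoxifen value comes from 7 reads in the group and lies below the level of 3 reads in a library, so no fold is given. Tnfrsf1b, the second receptor of tumour necrosis factor, went from 62.3 to 26.0 CPM (log2 -1.33, SE 0.12), and its main receptor Tnfrsf1a from 169 to 133 CPM (log2 -0.41, SE 0.07). Tnfrsf11a, the RANK receptor, rose from 11.03 to 35.1 CPM (log2 1.6, SE 0.14). Of 13 adaptors and ubiquitin ligases, 7 were lower and 4 (Tradd, Irak4, Rbck1 and Sharpin) higher. Tradd, an adaptor of the tumour necrosis factor receptor, rose from 25.3 to 66.2 CPM (log2 1.32, SE 0.08) and Irak4, a kinase of interleukin 1 and Toll-like receptor signalling, from 18.9 to 39.7 CPM (log2 1.00, SE 0.09). Of 8 kinases, 3 were lower and 1 higher. The higher one was Chuk, the IKK alpha subunit of the kinase complex that the noncanonical branch needs (60.5 to 156 CPM, log2 1.30, SE 0.15), and Ikbkg, its regulatory subunit NEMO, was among the lower ones (87.5 to 55.2 CPM, log2 -0.73, SE 0.14) with Map3k14 and Tab2. Map3k14 encodes NIK, the kinase that starts the noncanonical branch (11.2 to 8.17 CPM, log2 -0.52, SE 0.20). Of the ligands tested 2 of 3 were lower, Il1a, an interleukin 1 (7.73 to 0.502 CPM, log2 -4.01, SE 0.30), and Ltb, lymphotoxin beta (0.286 to 0.0581 CPM, both near the level of 3 reads in a library). The other, Tnfsf13b (BAFF, a B cell survival factor), rose from 0.108 CPM, 9 reads in the DMSO group and about the level of 3 reads in a library, to 1.55 CPM.

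Of the other 2 subunits, Rela, the p65 partner of p50, fell from 108 to 47.8 CPM (log2 -1.25, SE 0.09, edgeR adjusted p = 3.73e-07), and Rel stood at 10.4 and 11.3 CPM (log2 0.06, SE 0.17). In the IkB family 4 of 5 genes were lower, Nfkbiz (67.2 to 27.1 CPM), Bcl3 (76.6 to 37.2 CPM), Nfkbib (37.6 to 25.6 CPM) and Nfkbie (7.94 to 3.43 CPM), and Nfkbid was higher (1.34 to 5.02 CPM). Of 6 feedback genes 4 were lower (Tnip3, Tnip2, Cyld and Tnip1) and 2 did not pass. Over all tested genes 32.4% were lower and 33.9% higher in Tamoxifen against DMSO organoids. Tnip3, a partner of A20, went from 37.8 to 0.400 CPM (log2 -6.60, SE 0.44). Against nativ organoids 34 of 57 pathway genes were lower, 12 higher and 11 did not pass, beside 33.5% of all tested genes in each direction, and Rbck1, a subunit of the linear ubiquitin ligase complex, was among the higher (84.1 to 141 CPM, log2 0.63, SE 0.07).

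**Figure D5:**
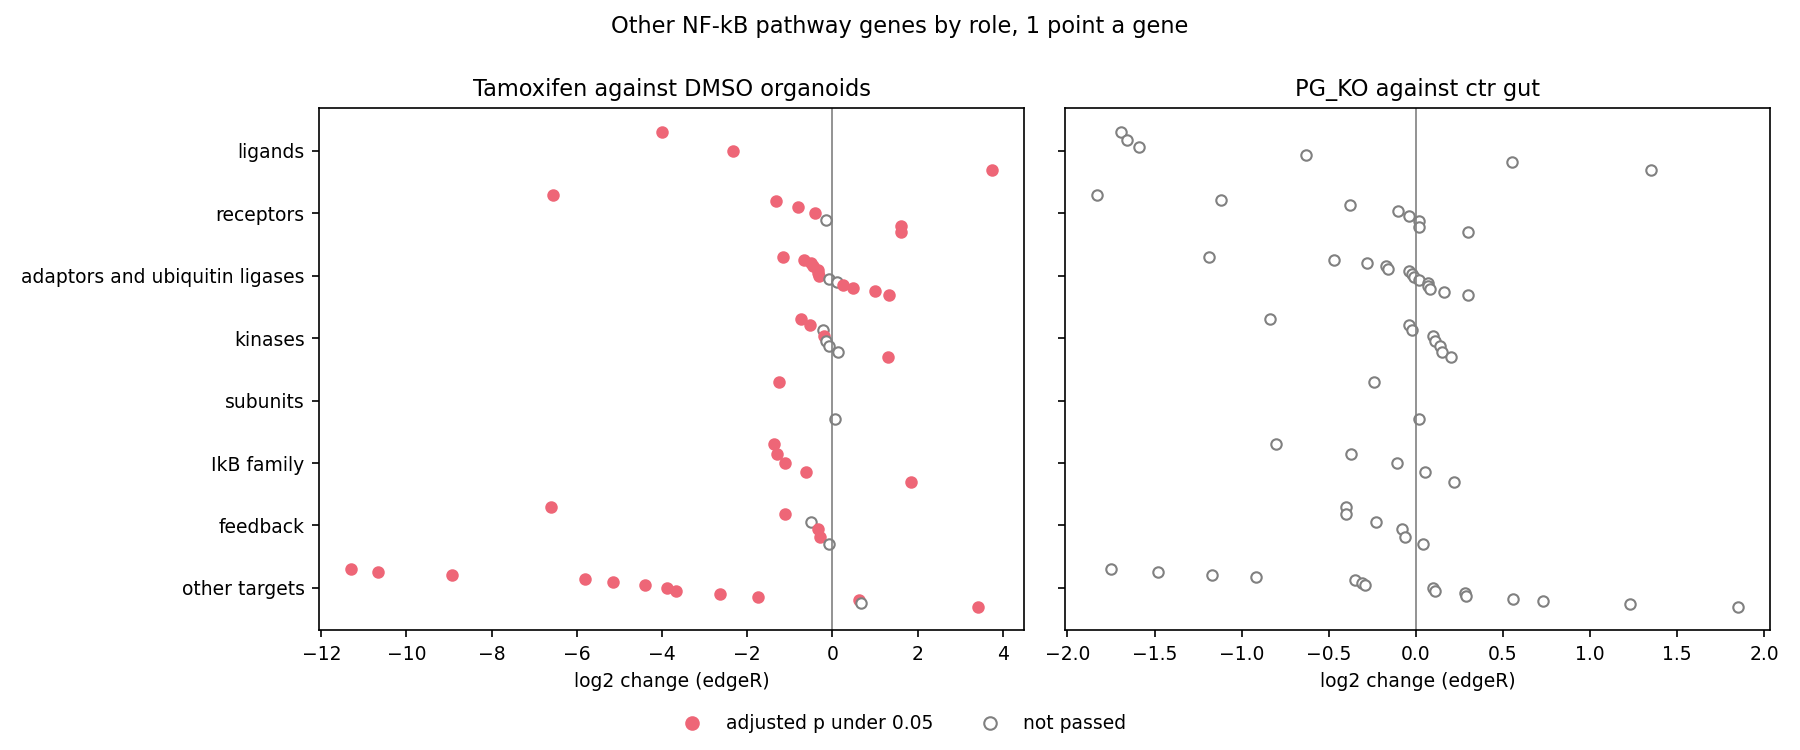
Log2 changes (x axis, edgeR) of further pathway genes, grouped by role on the y axis, 1 point a gene, for Tamoxifen against DMSO organoids and for PG_KO against ctr gut; the 2 panels have different x ranges. Filled points passed an adjusted p of 0.05. In organoids 35 points are filled below 0 and 11 above, and in gut no point is filled.

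DMSO and nativ organoids gave 0 calls among the 57 with edgeR, 11 at an unadjusted p under 0.05, and 1 with DESeq2, beside 0%, 14.6% and 0.954% of all tested genes. That 1 was Ccl2, a monocyte-attracting chemokine, at 6.93 CPM in DMSO and 13.6 in nativ organoids (DESeq2 adjusted p = 0.00666, edgeR adjusted p = 0.291). Cxcl1 was at 27.2 and 42.6 CPM, Bcl2l1, which encodes the survival protein Bcl-xL, at 490 and 346, and Tnfrsf1a, the main receptor of tumour necrosis factor, at 169 and 143, none of which passed after adjustment in edgeR. In gut 0 of 64 passed with edgeR, 5 were at an unadjusted p under 0.05, and DESeq2 called 1, beside 0%, 15% and 2.54% of all tested genes. The 1 was Tnfsf13b, at 20.8 CPM in ctr and 6.74 in PG_KO (log2 -1.59 in edgeR, SE 0.28, edgeR adjusted p = 0.33, DESeq2 adjusted p = 3.87e-05). Without ctr replicate 3 edgeR called 3 of the 64, a smaller share than the 7.91% of all tested genes called in that fit. They were Tnfsf13b, Traf5 (13.5 CPM in ctr, 5.81 in PG_KO) and Map3k14 (17.2 and 9.47 CPM). Csf2, a myeloid growth factor (log2 1.85, SE 0.92), and Ccl2 (log2 1.23, SE 1.02) had positive values in gut, with a wide spread over the PG_KO libraries. Csf2 was scarce, at a mean of 0.326 CPM in ctr and 1.15 in PG_KO. In gut 3 reads in a library are 0.1025 to 0.1293 CPM.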

How the data were processed

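Per the labels' protocols, RNA was isolated with TRIZOL and enriched with oligo-dT beads, and TruSeq libraries were made. The submitters' processing notes name GRCm38.p6 as the build, STAR (2.7.2b), featureCounts of Subread (1.6.4), cutadapt (2.5), DESeq2 and bcl2fastq (2.20.0.422). Whether counting used strand is not given in the sources used here. The deposited values are expected counts of reads per gene, not scaled between libraries, of which 10.4% to 13.7% per library are not whole, and they were rounded before fits. Gene positions and lengths come from the deposited tables.

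The members and gene lists were chosen with earlier results of these data known. Counts were tested with edgeR 4.0.16 in R 4.3.3 (TMM, filterByExpr by group, robust quasi-likelihood fit, Benjamini-Hochberg adjustment over all tested genes, calls at 0.05), the 9 organoid libraries in 1 fit, the 6 gut libraries in another, and 12 libraries for the difference between them. Standard errors are the absolute log2 change over the square root of F, and 95% intervals span 1.96 SE on each side. These intervals follow the normal distribution and are narrower than the F test implies with so few libraries. Counting floors cover counting error only. Libraries were grouped by their descriptions. Alternatives were DESeq2 1.42.0, limma-voom (limma 3.58.1), RLE factors, library totals, other low-count filters, the replicate number as a block, fewer libraries and leaving out each library. Tests were tried on simulated counts. All 10 genes are named. Of the pathway list up to 5 called genes per direction with the smallest p and a mean of at least 1 CPM are named, or 2 where none was called, and the 2 nearest genes per member by pattern. Figures were drawn with matplotlib 3.10.9.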

Additional observations from a re-analysis of the deposited data

Results flagged for a closer look

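The changes of 4 genes differed between organoids (Tamoxifen against DMSO) and gut (PG_KO against ctr) by the interaction term of the edgeR fit. Of all 19141 tested genes the difference passed as positive in 20.7% and as negative in 15.7%, so passing alone sets none of these genes apart. The difference of the log2 changes was -4.15 for Icam1, -4.58 for Ptgs2, 1.08 for Relb and 1.19 for Birc3. Icam1, Relb and Birc3 passed in each of the 12 fits that left out 1 library, with adjusted p of at most 0.00162, 0.0175 and 0.0317 in edgeR. Ptgs2 passed in 5 of those 12. No group has more than 3 libraries, so single outlying libraries were not tested.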

How the results depend on the processing

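In the Tamoxifen comparisons the counts of called genes stayed within 1.5 times under every alternative, and members called ranged from 7 to 8 of 9. Scaling by library totals shifted the median over all tested genes to 0.13, from 0.01, on the log2 scale (Tamoxifen against nativ), and the members' calls and directions held. For DMSO against nativ, DESeq2 called 1 pathway gene and 157 genes in all, no low-count filter 2 genes in all, and leaving out 1 library 0 to 1. For gut, DESeq2 called 1 pathway gene and 458 genes, no filter 5, and leaving out 1 library 0 to 3 pathway genes and 0 to 1478 genes (the highest without ctr replicate 3). For the difference between organoids and gut, leaving out 1 library gave 3 to 7 members (7 without PG_KO replicate 3). With TMM-scaled library sizes 41 group means of members in CPM moved by less than 1 SD and 6, in the Tamoxifen group, by more. The causes were not tested.

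Signs turned where the change was small or the spread wide. For DMSO against nativ Icam1 was -0.0087 with limma-voom, -0.0076 at 1 CPM in 3 libraries, -0.0031 with the replicate block and -0.0049 in 6 libraries, and Birc3 was 0.02 with library totals. In gut Tnf was -0.04 with limma-voom and -0.05 with the replicate block, and Nfkbia 0.0083 without ctr replicate 1 and PG_KO replicate 3. The difference for Nfkb1 was -0.0069 with DESeq2 and -0.03 with nativ in place of DMSO. Leaving out 1 library gave, for Nfkb1, -0.0053 to 0.09 (Tamoxifen against DMSO), -0.05 to 0.20 (against nativ), -0.06 to 0.17 (DMSO against nativ), -0.06 to 0.20 (gut) and -0.24 to 0.18 (difference), and for the difference of Nfkbia -0.51 to 0.18. It gave -0.16 to 0.04 for Nfkb2, -0.14 to 0.14 for Icam1, -0.19 to 0.16 for Birc3 and -0.63 to 0.12 for Ptgs2 in DMSO against nativ, and -0.84 to 1.6 for Tnf, -0.19 to 0.75 for Icam1 and -0.28 to 2.14 for Ptgs2 in gut.

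Correlations of the deviations of same-numbered libraries were -0.123 to 0.186 in organoids and -0.183 to 0.289 in gut. Those of libraries with different numbers were -0.154 to 0.147 and -0.306 to 0.215. With 3 libraries in a group these values cannot decide whether the replicate numbers pair the samples. With the replicate block 8, 8, 0 and 0 members and 43, 46, 0 and 0 pathway genes were called in Tamoxifen against DMSO, Tamoxifen against nativ, DMSO against nativ and gut, and no member's call changed.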
